A study of Mus musculus and Homo sapiens with 11 samples.

Results

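Integrins are the receptors by which cells hold on to the extracellular matrix, and 10 of their subunit genes are described here: Itga2, Itga3, Itga5, Itga6, Itgav, Itgb1, Itgb4, Itgb5, Itgb6 and Itgb8. They were taken by gene symbol from a table of 24062 mouse genes, and all 10 were found and passed the filter on low values. The table holds RNA sequencing of MMTV-ErbB2, a mouse mammary tumour cell line from tumours in which the mouse mammary tumour virus promoter drives the receptor tyrosine kinase ErbB2. BrM (BrM 2a in the sample titles) is the brain metastatic derivative of that line, with 3 libraries, and the parental line has 3 libraries. Both are labelled as breast cancer cell lines grown in culture in DMEM or RPMI medium with serum, and no treatment is given for either, although the design text of the series speaks of tumours in mouse brains. The derivative is 1 line, so nothing here separates what is common to brain metastatic cells from what belongs to this derivative. Libraries of the human line HCC1954, 5 of the 11 in the series, are not described.

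An integrin is a pair of an alpha and a beta chain, and the pairing sets what it binds. The beta-1 chain pairs with many alpha chains: with alpha-2 it binds collagen, with alpha-3 and alpha-6 it binds laminins of the basement membrane, and with alpha-5 it binds fibronectin. The beta-4 chain pairs with alpha-6 alone and anchors epithelial cells to laminin in hemidesmosomes. The alpha-v chain pairs with beta-1, beta-3, beta-5, beta-6 or beta-8 and recognises the RGD tripeptide in matrix proteins, and with beta-6 or beta-8 it also binds and activates latent TGF-beta. In the mammary gland, beta-1 and alpha-6 beta-4 integrins hold the epithelium to its basement membrane, and beta-6 is a chain of epithelial cells.

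The promoters of 3 subunit genes that differed between the lines are shown, since the transcript of each changed and the stretch around the start site is where its transcription begins. They are RefSeq sequences of GRCm38.p6, 250 bases before to 50 bases after the start, on the minus strand in all 3 cases. Capitals mark a match, on either strand, to any of 4 motifs searched: TGANTCA (AP-1), GGGCGG (GC box), CACCTG (an E-box) and TATAAA (a core promoter box).
Itgb6, chr2:60722554-60722853: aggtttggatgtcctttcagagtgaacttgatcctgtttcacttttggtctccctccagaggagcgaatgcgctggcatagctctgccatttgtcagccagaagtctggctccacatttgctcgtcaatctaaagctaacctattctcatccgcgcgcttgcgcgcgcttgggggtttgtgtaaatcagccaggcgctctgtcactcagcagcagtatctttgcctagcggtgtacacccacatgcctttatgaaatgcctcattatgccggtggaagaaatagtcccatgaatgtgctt
Itgb8, chr12:119238227-119238526: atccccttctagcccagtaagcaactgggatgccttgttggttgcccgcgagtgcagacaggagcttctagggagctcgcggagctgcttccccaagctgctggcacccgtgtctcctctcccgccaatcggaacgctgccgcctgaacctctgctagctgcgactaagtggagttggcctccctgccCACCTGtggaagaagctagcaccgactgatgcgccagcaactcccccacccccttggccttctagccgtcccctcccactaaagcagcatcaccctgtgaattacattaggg
Itga2, chr13:114932051-114932350: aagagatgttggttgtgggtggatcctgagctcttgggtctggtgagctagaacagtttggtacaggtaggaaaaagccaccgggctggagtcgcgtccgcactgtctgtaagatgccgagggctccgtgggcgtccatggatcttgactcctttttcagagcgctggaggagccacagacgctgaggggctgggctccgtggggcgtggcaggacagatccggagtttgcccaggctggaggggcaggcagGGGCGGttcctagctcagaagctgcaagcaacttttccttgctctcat
The Itgb6 promoter shown held none of the 4 motifs, that of Itgb8 held 1 CACCTG and that of Itga2 held 1 GGGCGG. Over the 32851 promoters of the same length in the RefSeq table, 7.81% held TGANTCA, 35.7% held GGGCGG, 20.2% held CACCTG and 13.6% held TATAAA. Of the 10 genes, 8 had an entry in that table, and Itga6 and Itgb4 were not among them. Itgb6 and Itga3 had a further start each, and the stretch around that of Itgb6 held 1 CACCTG. Which start the cells use was not tested. The start used for Itgb8 lies 526 bases inside the gene as GENCODE M21 draws it, while those of Itgb6 and Itga2 lie within 40 bases of the annotated gene start.

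The 10 genes split between the lines: the chains that rose in the derivative were beta-6 and beta-4, and those that fell were alpha-2 and beta-8. By limma with Benjamini-Hochberg adjustment over 13821 genes, Itgb6 was 3.04-fold and Itgb4 1.46-fold higher in BrM cells, Itga2 was 1.96-fold and Itgb8 4.73-fold lower, and 6 of the 10 did not pass. Those 4 calls of 10 stand beside 28.1% of all genes tested, with 2 higher beside 12.2% and 2 lower beside 15.8%. The groups did not overlap for 5 of the 10, beside 48.0% of all genes. The median log2 fold change of the 10 was -0.21, against -0.05 over all genes tested. With 10 genes these shares do not set the group apart, and the results below are about single subunits. Centring each library on its median log2 value moved the median over all genes to 0.07 and the share of calls that were higher to 54.1%, against 43.6% with the authors' scaling. None of the 10 genes changed direction under that or any other alternative tried.

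Reads assigned to genes numbered 29877087 to 39106969 in BrM libraries and 39304974 to 46683735 in parental libraries. The smallest count behind a value of these 10 genes was 39 reads, for Itgb8 in BrM replicate 1. BrM replicate 1 stood apart: 3614 and 3654 genes differed at least 2-fold between it and BrM replicates 2 and 3, while those 2 libraries differed from each other in 220 genes and parental libraries in 976 to 1683. Subunit results that rest on it are given with and without it, and marker sums are given in each library. The labels do not say that the libraries of a line are separate cultures, so the spread behind each p-value may be technical. Library kit and medium are listed as alternatives without naming libraries, and a difference of either between the lines cannot be told apart from the derivation. In a bulk sample, fewer cells of a kind and less RNA per cell cannot be told apart. Values are read counts scaled by the authors, and fold changes are on the scale of log2 of the value plus 1.

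The defining markers of epithelium were abundant in both lines. The 5 chosen were Epcam, Krt8, Krt18, Cdh1 and Cldn7. Their summed level ran from 143331 to 158609 in BrM libraries and from 88737 to 99200.3 in parental ones. Krt8 and Krt18 made most of the BrM sums. Limma called 3 higher (Krt8, Krt18, Cldn7), beside 12.2% of all genes tested, and 1 lower (Cdh1), beside 15.8%. The Cdh1 call (1.55-fold, adjusted p = 0.0113) ended without BrM replicate 2 or 3 or parental replicate 2. Epcam was not called (log2 fold change -0.20, adjusted p = 0.41). Keratin 18, a filament protein of simple epithelium, was at 43588 ± 4629.9 in BrM cells and 19135 ± 993 in parental cells (SD, n = 3 each, adjusted p = 0.00186). Of 5 fibroblast and pericyte markers, 3 were tested and 2 were called lower, beside 15.8% of all genes tested. Most of the parental sum in each library came from 1 of those 2 called markers. The 5 summed to 576, 168 and 179.7 in BrM replicates 1 to 3, against 4272, 4841 and 1457 in parental replicates 1 to 3. Lum was at 0 in all 6 libraries and Dcn at 0 in BrM. Pdgfra made most of the BrM sums, at 555, 165 and 170 in BrM replicates 1 to 3. It was at 642, 778 and 220 in parental replicates 1 to 3 and was not called (limma adjusted p = 0.332). Rgs5, not tested, was at 20.8, 1.91 and 5.59 in BrM replicates 1 to 3, against 8.14, 6.59 and 2.83 in parental replicates 1 to 3. Endothelial markers (4 of 4 listed, none tested) summed to 25.6, 5.74 and 3.73 in BrM replicates 1 to 3, of which Pecam1 made 18.3 in BrM replicate 1, against 17.3, 18.9 and 9.44 in parental replicates 1 to 3. The part of the fibroblast and pericyte markers in the integrin values was not tested.

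**Figure D1:**
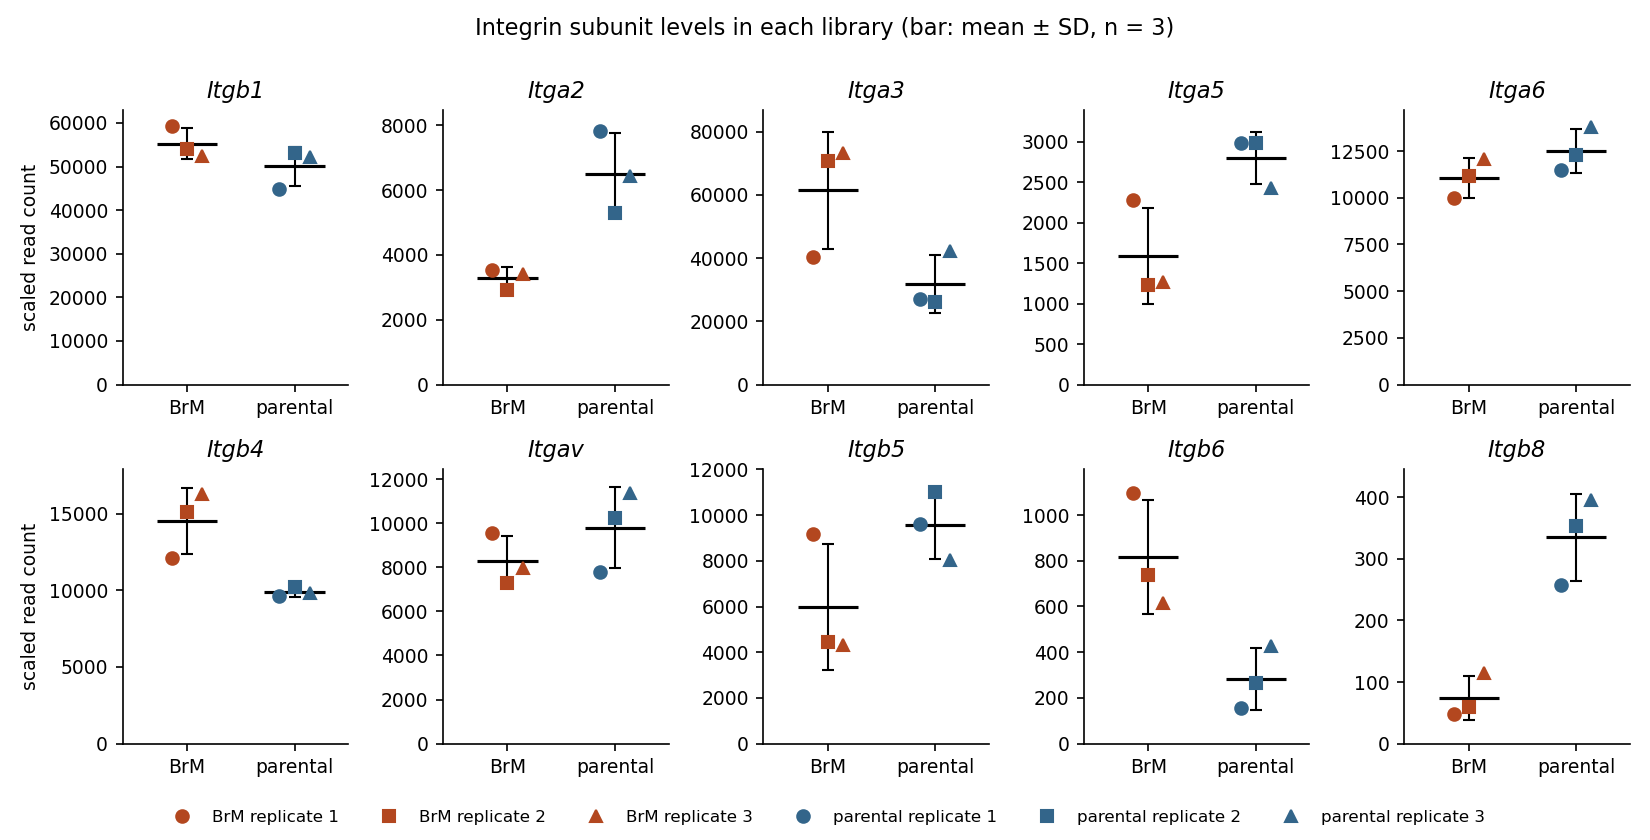
Scaled read counts (vertical axes, from 0) of the 10 integrin subunits in each library, BrM on the left and parental on the right of every panel, with the mean and SD over 3 libraries. The groups are apart for Itga2, Itga5, Itgb4, Itgb6 and Itgb8. BrM replicate 1 lies closer to the parental libraries than the other BrM libraries for Itga3, Itga5, Itgb4 and Itgb5, among others.

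Itgb1, the chain shared by most matrix-binding integrins (chromosome 8, 128685654 to 128733200, plus strand of GRCm38), did not pass the test. It stood at 59201, 53979.5 and 52473 in BrM replicates 1 to 3, against 44910.1, 53093 and 52119 in parental replicates 1 to 3. The ranges overlapped, and the log2 fold change of 0.14 (95% interval -0.21 to 0.50, limma adjusted p = 0.506) had an interval on both sides of 0.

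Itga2, which pairs with beta-1 to bind collagen (chromosome 13, 114833081 to 114932100, minus strand), fell in the derivative. BrM replicates 1 to 3 had 3534, 2907 and 3423.5, and parental replicates 1 to 3 had 7818, 5288 and 6438. Every BrM library was below every parental one. Its log2 fold change was -0.97 (SE 0.18, adjusted p = 0.00906). It kept its call in all 21 alternatives, with 1.78-fold to 2.16-fold lower when single libraries were left out.

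Itga3, which pairs with beta-1 as a laminin receptor (chromosome 11, 95044474 to 95076801, minus strand), was the most abundant alpha chain and narrowly missed the threshold of the limma test with all 6 libraries. It stood at 40238, 70633 and 73325 in BrM replicates 1 to 3, against 26946.5, 26022 and 42234 in parental replicates 1 to 3. BrM replicate 1 lay just under parental replicate 3, and the other BrM libraries lay above all parental ones. Its log2 fold change was 0.94 (95% interval 0.20 to 1.67, adjusted p = 0.0636). Without BrM replicate 1 it was 1.22 (adjusted p = 0.00814), with BrM replicates 2 and 3 close to each other. Without any 1 of the other libraries the adjusted p went from 0.0507 to 0.191. With all 6 libraries Itga3 passed under median centring (adjusted p = 0.0431), array weights (0.000148), the term for numbered titles (0.0385) and DESeq2 (0.0126), and not with edgeR (0.0683).

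Itga5, the alpha chain of the main fibronectin receptor (chromosome 15, 103344286 to 103366763, minus strand), narrowly missed the threshold. BrM replicates 1 to 3 had 2275, 1227 and 1266, and parental replicates 1 to 3 had 2979.7, 2983 and 2421. All BrM libraries were below all parental ones, with BrM replicate 1 nearest to them. The log2 fold change was -0.87 (95% interval -1.50 to -0.24, adjusted p = 0.0513). It was -1.16 without BrM replicate 1 (adjusted p = 0.0011), and with any other library left out the adjusted p went from 0.0867 to 0.155. With all 6 libraries Itga5 passed with TMM scaling (adjusted p = 0.0418), array weights (3.68e-05) and DESeq2 (0.0337).

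Itga6, the partner of both beta-1 and beta-4 in laminin receptors (chromosome 2, 71745616 to 71858416, plus strand), did not pass. BrM replicates 1 to 3 had 9966, 11167 and 12061, and parental replicates 1 to 3 had 11487, 12270.3 and 13794. The ranges overlapped, and the log2 fold change was -0.18 (95% interval -0.50 to 0.15, adjusted p = 0.367).

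Itgb4, the laminin-binding chain of hemidesmosomes (chromosome 11, 115974709 to 116008412, plus strand), rose by a small step. It was at 12102, 15124 and 16307 in BrM replicates 1 to 3, against 9643, 10228 and 9816 in parental replicates 1 to 3. The parental libraries lay close together and every BrM library was above them. Its log2 fold change was 0.54 (SE 0.15, adjusted p = 0.0353). The call ended without any 1 of the libraries other than BrM replicate 1 (adjusted p 0.0877 to 0.127) and without the intensity trend (adjusted p = 0.0615), and without BrM replicate 1 the adjusted p was 0.003.

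**Figure D2:**
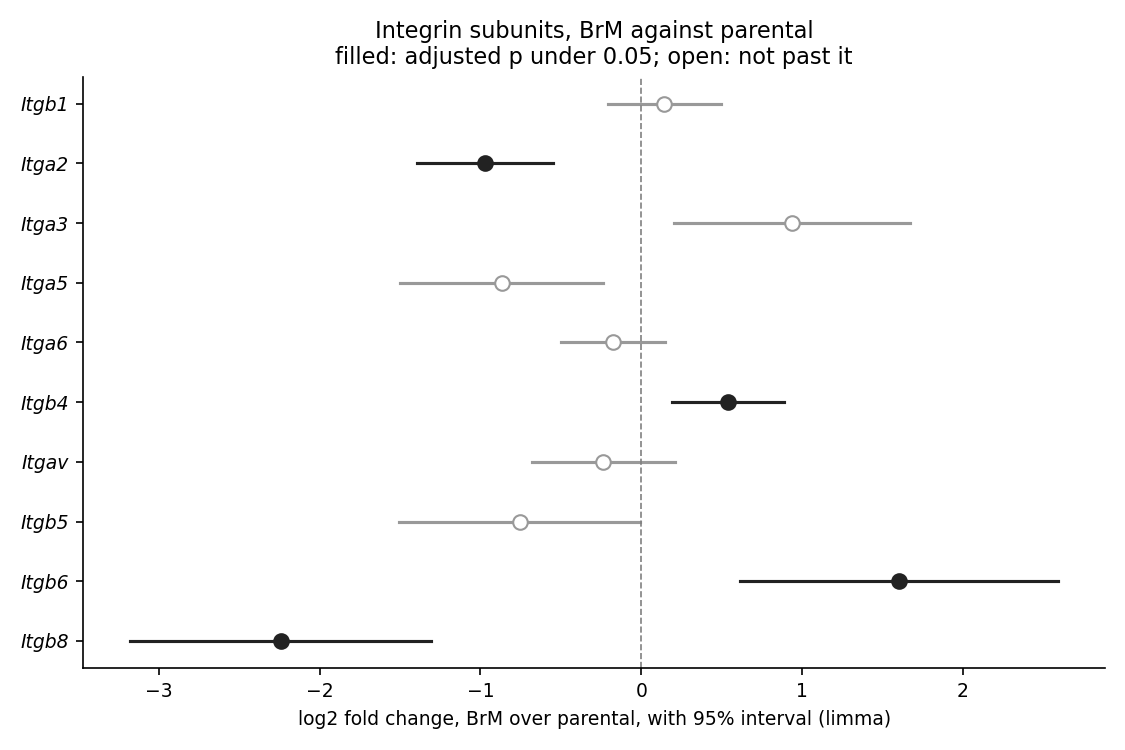
Log2 fold change of each integrin subunit, BrM over parental (horizontal axis), with the 95% interval of limma. Filled points (Itga2, Itgb4, Itgb6 and Itgb8) have an adjusted p under 0.05, and the intervals of Itgb1, Itga6 and Itgav span 0.

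Itgav, the alpha chain of the RGD-binding group (chromosome 2, 83724397 to 83806916, plus strand), did not pass. BrM replicates 1 to 3 had 9568, 7310.3 and 7966, and parental replicates 1 to 3 had 7807, 10232.5 and 11371. The ranges overlapped, and the log2 fold change was -0.24 (95% interval -0.68 to 0.21, adjusted p = 0.386).

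The beta chains that pair with alpha-v went different ways, although alpha-v itself was not called. Itgb5, a vitronectin-binding chain (chromosome 16, 33829665 to 33949338, plus strand), was at 9175, 4469 and 4303 in BrM replicates 1 to 3, against 9629, 10996 and 8021 in parental replicates 1 to 3. BrM replicate 1 lay inside the parental range and the other BrM libraries far below it. The log2 fold change was -0.76 (95% interval -1.51 to -0.0043, adjusted p = 0.121) with all libraries and -1.11 without BrM replicate 1 (adjusted p = 0.00209). With 1 of the other libraries left out the adjusted p went from 0.159 to 0.3.

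Itgb6, an epithelial chain that with alpha-v activates latent TGF-beta (chromosome 2, 60598292 to 60722643, minus strand), rose. It was at 1095, 739 and 616 in BrM replicates 1 to 3, against 155, 266 and 427 in parental replicates 1 to 3. Every BrM library was above every parental one, and the parental libraries also spread among themselves. BrM over parental, the log2 fold change was 1.60 (SE 0.41, adjusted p = 0.0303). The call ended without BrM replicate 2 (adjusted p = 0.0804), BrM replicate 3 (0.0559), parental replicate 1 (0.0722) or parental replicate 2 (0.0919), with folds of 2.35 to 3.89 over all 6 choices of the library left out.

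Itgb8, which also activates latent TGF-beta with alpha-v and is known for this in neural cells (chromosome 12, 119158022 to 119238802, minus strand), fell the most of the 10 by fold. It was at 47.6, 59.3 and 115 in BrM replicates 1 to 3, against 257, 353 and 395 in parental replicates 1 to 3. These are 39, 62 and 124 reads in BrM libraries and 253, 429 and 418 reads in parental ones, and the groups are well apart. On the log2 scale the fold change was -2.24 (SE 0.39, adjusted p = 0.00789). It kept its call in all 21 alternatives, and with single libraries left out it was 3.95-fold to 6.11-fold lower.

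**Figure D3:**
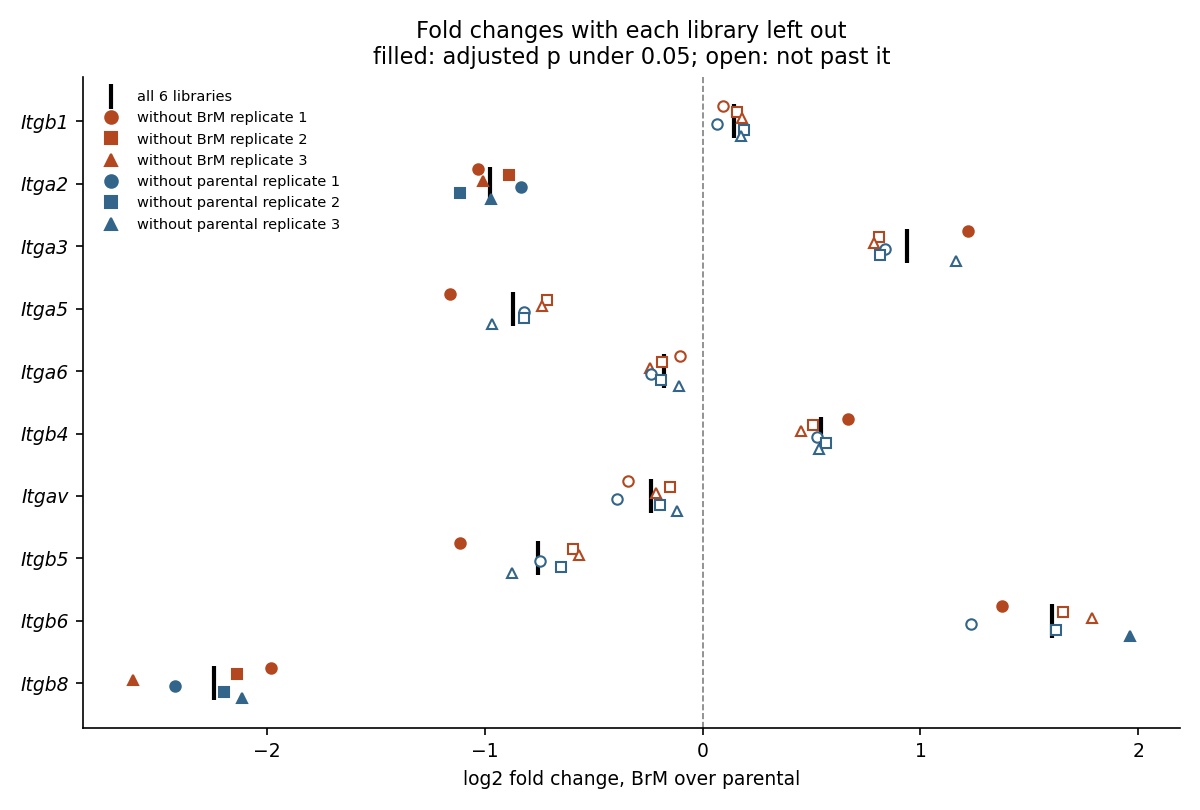
Log2 fold change, BrM over parental (horizontal axis), of each subunit with all 6 libraries (black bar) and with each library left out (symbols, filled where the adjusted p is under 0.05). Itga2 and Itgb8 stay filled throughout, Itgb4 is filled only without BrM replicate 1, and Itga3, Itga5 and Itgb5 become filled only without BrM replicate 1.

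Levels of different genes were set side by side per kilobase of exon, using the union of exons in GENCODE M21 of GRCm38. Itgb1 was highest in both lines, at 13531 ± 865 scaled reads per kilobase in BrM cells and 12262 ± 1095 in parental cells (SD, n = 3 each). Itga3 came second, at 10753 ± 3218 in BrM cells and 5558 ± 1595 in parental cells. It came near Itgb1 in BrM replicates 2 and 3 (12370 and 12841.5, against 13227 and 12858 for Itgb1). In BrM replicate 1 it was well below (7047 against 14507). In BrM cells the order went on with Itgb4, Itgb5, Itga6, Itgav, Itga2, Itga5, Itgb6 and Itgb8, where neighbours overlapped for Itgb4 and Itgb5, Itgb5 and Itga6, and Itga2 and Itga5. In parental cells it was Itgb5, Itgb4, Itga6, Itga2, Itgav, Itga5, Itgb6 and Itgb8, with overlaps for Itgb4 and Itga6, Itga2 and Itgav, and Itgb6 and Itgb8. Itgb6 and Itgb8 were apart in the derivative, at 115 ± 35 and 6.7 ± 3.28 scaled reads per kilobase, and near each other in the parental line, at 39.7 ± 19.2 and 30.3 ± 6.36. Among the alpha-v partners other than beta-1, Itgb5 held 92.2% ± 1.21 of the summed level of Itgb3, Itgb5, Itgb6 and Itgb8 in BrM cells and 95.5% ± 2.18 in parental cells. Itgb6 held 6.56% ± 0.985 in BrM cells and 1.47% ± 0.887 in parental cells, where it was 0.972% without parental replicate 3. Itgb8 held 0.446% ± 0.321 in BrM cells, where it was 0.273% without BrM replicate 3, and 1.1% ± 0.331 in parental cells. These transcript levels do not measure protein or pairing.

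**Figure D4:**
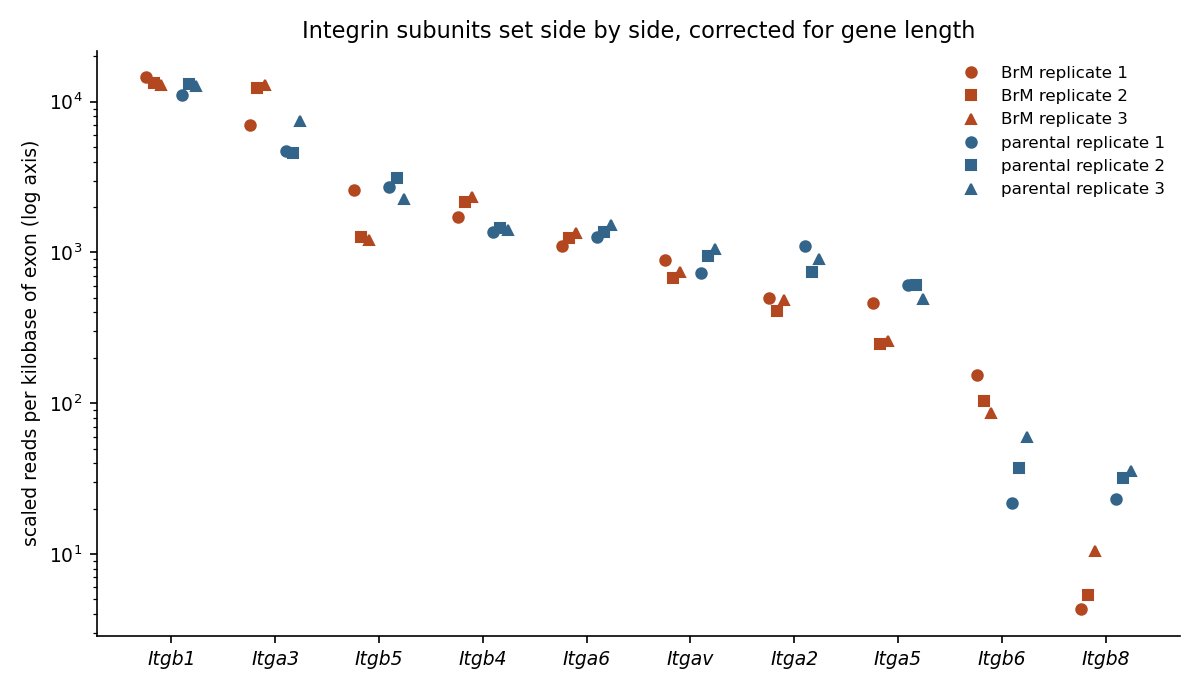
Scaled reads per kilobase of exon (vertical log axis) of the 10 subunits in order of their mean over the 6 libraries, with BrM left and parental right for each gene. Itgb1 and Itga3 lie above the other subunits, and Itgb6 and Itgb8 lie below them with opposite shifts between the lines.

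Ratios of 2 subunits within a library do not depend on its scaling, and gene length cancels between the lines. In all, 10 ratios were compared with a two-sided exact permutation test over 3 against 3 libraries, which cannot go below p = 0.1, so none could be called. Itgb6 over Itgb8 had log2 ratios of 4.52, 3.64 and 2.41 in BrM replicates 1 to 3, against -0.74, -0.41 and 0.11 in parental replicates 1 to 3. The lines were far apart, by 14.6-fold (exact p = 0.1, Benjamini-Hochberg 0.222 over the 10 ratios). Without BrM replicate 3 the log2 difference was 4.43 in place of 3.87, and without BrM replicate 1 it was 3.37. Itgb8 over Itgb1 was 5.3-fold lower and Itgb6 over Itgb1 was 2.76-fold higher in BrM cells, with no overlap of libraries (exact p = 0.1 for each). Itga3 over Itga5, a laminin-binding against the fibronectin-binding alpha chain, was 3.5-fold higher in BrM cells with no overlap (exact p = 0.1). BrM replicate 1 had a log2 ratio of 4.14 there, next to 4.12 in parental replicate 3, and without it the log2 difference was 2.38 in place of 1.81. The other 6 ratios overlapped between the lines (exact p = 0.2 to 0.7), among them Itgb4 over Itgb1 and Itga2 over Itga5.

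**Figure D5:**
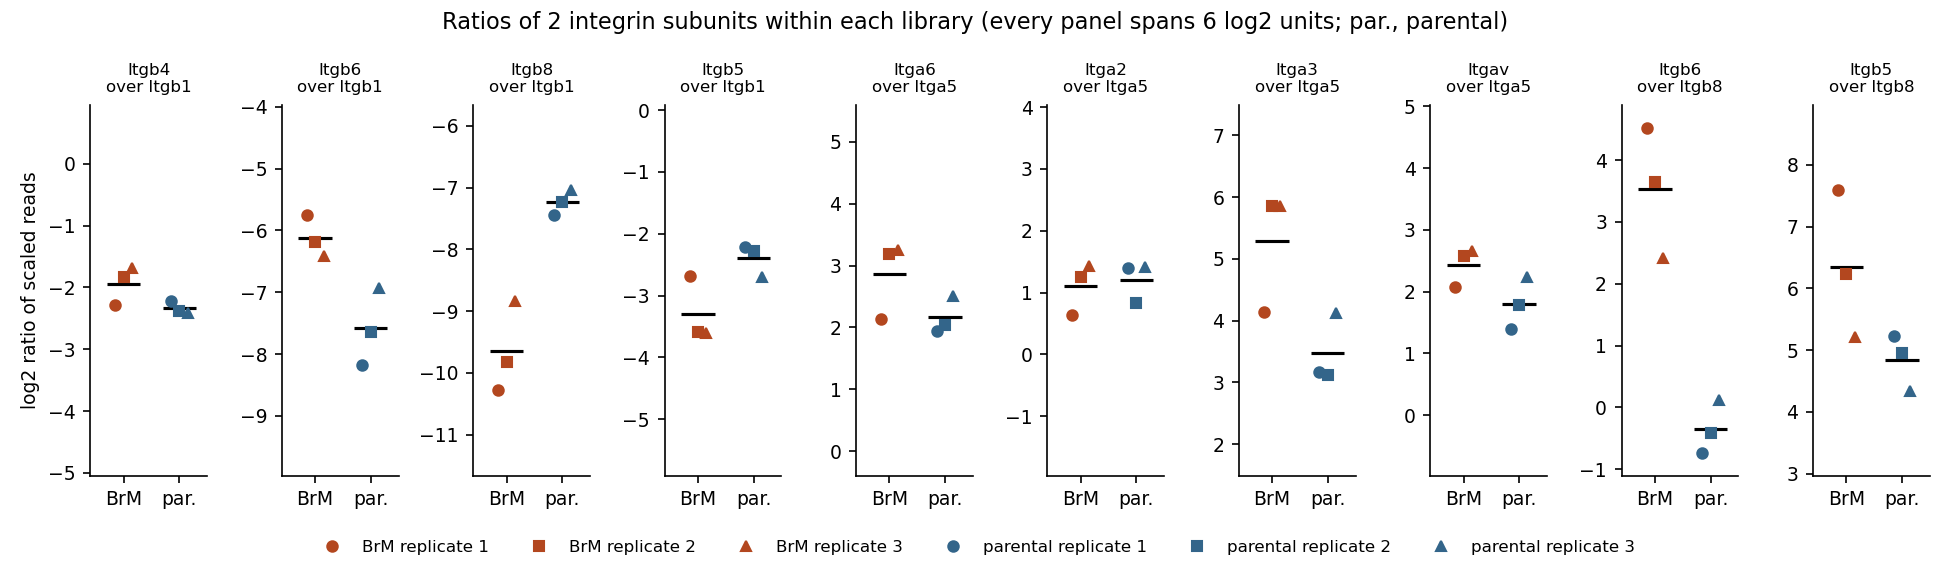
Log2 ratio of 2 subunits within each library (vertical axes, each spanning 6 log2 units), BrM left and parental right, with the mean as a bar. The lines are apart for Itgb6 over Itgb1, Itgb8 over Itgb1, Itga3 over Itga5 and Itgb6 over Itgb8.

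Of 11 other integrin subunits outside the leukocyte group, limma called 0 higher and 4 lower, and 7 did not pass (median log2 fold change -0.89 against -0.05 over all genes). That is 36.4% called, near the 28.1% of all genes tested (12.2% higher and 15.8% lower). With array weights 8 were called, in a setting that called 8485 of all 13821 genes tested. At an unadjusted p under 0.05, 1 was higher (Itga10), and edgeR called 0 and DESeq2 1 higher. Itga7, a laminin-binding alpha chain best known from muscle, fell to 226, 271 and 309 in BrM replicates 1 to 3, against 1841, 2179 and 3168 in parental replicates 1 to 3 (8.73-fold, adjusted p = 0.00046). It overlaps Mettl7b in the annotation, and whether counting used strand is not stated. Itgb3, the beta chain of the vitronectin receptor, fell to 104, 55.5 and 71.7 in BrM replicates 1 to 3, against 217, 290 and 443 in parental replicates 1 to 3 (4.03-fold, adjusted p = 0.00997). Both kept their calls in all 21 alternatives. The other calls were Itga1, which overlaps Pelo, and Itga9. That of Itga1 ended without BrM replicate 2 (adjusted p = 0.0781), BrM replicate 3 (0.0763), parental replicate 1 (0.061) or parental replicate 2 (0.0669), and that of Itga9 without parental replicate 2 (0.056).

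The laminins, ligands of alpha-3, alpha-6, alpha-7 and beta-4 integrins, changed chain by chain: 4 rose and 3 fell among the 9 tested, and 2 missed the threshold (median log2 fold change 0.28). That is 77.8% called, against 28.1% of all genes tested. Lama3, an alpha chain of epithelial basement membrane laminin, was 32.5-fold higher (10159.8 ± 3598 in BrM cells and 488 ± 536 in parental cells, adjusted p = 0.00741; 17.6-fold without parental replicate 1, 62.2-fold when parental replicate 3 was left out). Lamb3, named after its values were seen, was 2.38-fold lower (9169 ± 3632 in BrM cells and 21545 ± 7098.5 in parental cells, adjusted p = 0.0344), and its call ended without any 1 of the libraries other than BrM replicate 1 (adjusted p 0.0534 to 0.109). Lamb3 overlaps Hsd11b1 and G0s2 in the annotation. Lamc3, a chain of low level here, was 7.78-fold higher (62 ± 7.19 in BrM cells and 7.18 ± 1.77 in parental cells, adjusted p = 0.00187).

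Among 11 tested RGD and related ligands, 2 rose and 4 fell (median log2 fold change -0.46). That is 54.5% called, against 28.1% of all genes tested. Fn1, fibronectin, the ligand of alpha-5 beta-1, fell to 72947 ± 44894 in BrM cells, against 423342 ± 56951 in parental cells (6.47-fold, adjusted p = 0.00494), and overlaps Apol7d in the annotation. Npnt, nephronectin, a basement membrane ligand of alpha-8 beta-1, rose to 8892 ± 1410.0 in BrM cells, against 986 ± 444 in parental cells (9.75-fold, adjusted p = 0.00191). Among 6 tested collagen chains, 2 rose and 3 fell (83.3% called, median log2 fold change -2.84). Those 5 calls went to 3 without BrM replicate 2 or 3 and to 2 without parental replicate 1 or 2. Calls over all genes fell in the same fits, from 3881 to 2190 and 2313 without BrM replicate 2 or 3. They fell to 2488 and 2212 without parental replicate 1 or 2. For the lists below, the count over all genes was also 2920 without parental replicate 3 and 6465 without BrM replicate 1. Col6a2, a collagen VI chain, fell to 4.77 ± 0.887 in BrM cells, against 1462 ± 1038 in parental cells (217-fold, adjusted p = 0.00027). Only 14 BrM reads stand behind that fold, and its log2 value of -7.76 ran from -8.239 to -6.996 over 21 alternatives. The 2 that rose were Col4a1 and Col4a2, which overlap in the annotation. Col4a1 was at 22310 ± 8383 in BrM cells, against 5126 ± 2531 in parental cells (4.42-fold, adjusted p = 0.0126). Its call ended without parental replicate 1 or 2. Col4a2, named after its values were seen, was at 14269.5 ± 2209 in BrM cells, against 7167 ± 2785 in parental cells (adjusted p = 0.0395). It lost its call in 7 of 21 alternatives. The summed markers of fibroblasts and pericytes, cells that make much of this matrix in tissue, were lower in every BrM library. Fn1 and Col6a2 were lower too, while Npnt, Col4a1 and Col4a2 were higher. Not every marker in that sum fell: Pdgfra overlapped between the lines and was not called. The part of these markers in the ligand values was not tested.

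The list of latent TGF-beta and its holders had 8 tested genes, of TGF-beta ligands, latent TGF-beta binding proteins and Lrrc32. Whether alpha-v beta-6 or alpha-v beta-8 acts on each of them was not tested. Limma called 0 higher and 4 lower (median log2 fold change -1.41 against -0.05 over all genes). That is 50% called, against 28.1% of all genes tested (12.2% higher and 15.8% lower). None of the 8 was higher at an unadjusted p under 0.05 (0 genes) or by edgeR or DESeq2 (0 each). The number called in either direction was 4 with DESeq2, 2 with edgeR, 2 with the term for numbered titles, 1 without the intensity trend and 7 with array weights. Of all 13821 genes tested, the same settings in that order called 5075, 3753, 3564, 3552 and 8485. The 4 calls went to 6 without BrM replicate 1 and to 1, Tgfb2, without any 1 of the other libraries. Tgfb2 fell to 559 ± 512 in BrM cells, against 5177 ± 634 in parental cells (11.9-fold, adjusted p = 0.00569; 19.5-fold without BrM replicate 1). Tgfb3, another TGF-beta ligand, fell to 2249 ± 489 in BrM cells, against 4097 ± 917 in parental cells (1.82-fold, adjusted p = 0.0341). Leaving out any 1 library other than BrM replicate 1 ended that call (adjusted p 0.061 to 0.107), and it overlaps Ttll5 in the annotation.

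Among 6 hemidesmosome partners of alpha-6 beta-4, 1 rose and 2 fell (median log2 fold change -0.10). That is 50% called, against 28.1% of all genes tested. Only 1 call was left without BrM replicate 2, parental replicate 1 or parental replicate 2. Cd151, a tetraspanin that binds laminin-binding integrins, fell to 7506 ± 987 in BrM cells, against 13457.5 ± 839.7 in parental cells (1.8-fold, adjusted p = 0.00609). Cd9, another tetraspanin that associates with integrins, fell to 17153 ± 792 in BrM cells, against 36075 ± 7239.5 in parental cells (2.07-fold, adjusted p = 0.00737). Cd151 and Cd9 were the 2 calls among 5 tetraspanins tested (40% called, median log2 fold change -0.85). Without BrM replicate 1 there were 4 calls. Limma, edgeR and DESeq2 called 0 tetraspanins higher, and 0 were higher at an unadjusted p under 0.05. Among 24 tested activators and adaptors of integrins, 8 rose and 2 fell (41.7% called, median log2 fold change -0.03). The 10 calls went to 6 without parental replicate 2. Parvb, beta-parvin, which binds integrin-linked kinase, rose to 1145 ± 222 in BrM cells, against 3.96 ± 0.845 in parental cells (230.4-fold, adjusted p = 6.66e-05). With only 13 parental reads behind it, the fold depended on the pseudocount and came to 127 with one of 5. Ptk2b, a kinase related to focal adhesion kinase, rose to 1543 ± 198 in BrM cells, against 509 ± 69 in parental cells (3.03-fold, adjusted p = 0.00162). Among 12 tested inhibitors and traffic genes, limma called 4 higher, 2 without BrM replicate 2 or 3, and 0 lower (median log2 fold change 0.02). That is 33.3% called, near the 28.1% of all genes (12.2% higher and 15.8% lower). None of the 12 was lower at an unadjusted p under 0.05 (0 genes) or by edgeR or DESeq2 (0 each). Rab25, an epithelial Rab11-family protein that recycles beta-1 integrins, rose to 4315 ± 163 in BrM cells, against 1133 ± 76.1 in parental cells (3.81-fold, adjusted p = 0.000217).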

How the data were processed

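Polyadenylated RNA was sequenced from 3 BrM and 3 parental MMTV-ErbB2 libraries. The deposited values are a signal: gene read counts scaled per library by the authors. Per the submitters' processing notes STAR, HTSeq, GRCh38 and GRCm38 were used. Versions, strand setting and the scaling tool are not given in the sources used here. Checked on the table, dividing by the value of 1 read gave whole numbers (tolerance 0.01 read) for 100% of nonzero values. Titles number only 2 of the 3 libraries of a line, and replicate 3 is the number in the table's header.

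From these values, genes with a mean of at least 10 were tested with limma 3.58.1 under R 4.3.3, taking log2 after adding 1, with an intensity trend, group as the only term, two-sided, and Benjamini-Hochberg adjustment at 0.05. Alternatives covered the pseudocount, the filter, the scaling, limma's trend, robust and array weight options, a replicate block and a term for the libraries with numbered titles. Each library was also left out in turn, and edgeR 4.0.16 and DESeq2 1.42.0 were run on the recovered reads. Averaging BrM replicates 2 and 3 was added after seeing the data. The methods were run on simulated data with counts drawn independently for each library. No library stood apart there as BrM replicate 1 does here, so error rates under that spread were not tested. Members, lists and tests were chosen with earlier results of these data known. For context lists the text names up to 4 called genes of smallest p. A result among them is not reported here. Likeness between members was not given as a correlation, since the libraries fall into 2 groups. Coordinates and exon lengths came from GENCODE M21 (GRCm38), which may not be the annotation the authors counted on, and 138 of 140 listed symbols matched it. Itga5, Itga6, Itgav and Itgb4 overlap noncoding genes there. Intervals of fold changes are limma's and rest on the spread between libraries. Permutation tests used SciPy 1.17.1, and figures matplotlib 3.10.9.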

Additional observations from a re-analysis of the deposited data

How the results depend on the processing

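Over 21 alternatives for each of the 10 subunits, 183 of 210 outcomes kept their direction and side of the threshold, 13 lost a call, 14 gained one and 0 reversed. The number of subunits called was 4, and 8 with array weights, 2 with BrM replicates 2 and 3 averaged and 2 to 7 with 1 library left out. All genes called numbered 3881 (1691 higher and 2190 lower), and 8485 (3949 and 4536) with array weights and 2279 (949 and 1330) with BrM replicates 2 and 3 averaged. With 1 library left out they ran from 2190 to 6465 (907 to 2853 higher, 1241 to 3612 lower), the most without BrM replicate 1. The cause was not tested. edgeR called 3753 and DESeq2 5075. Of the 104 genes in the context lists, some of them not tested, 45 were called, beside 28.1% of all genes tested. The number was 29 with BrM replicates 2 and 3 averaged and 26 to 49 with 1 library left out. Itga2 over Itga5, with a log2 difference of -0.10, ran from -0.30 to 0.13 with 1 library left out and turned positive without BrM replicate 1. With the replicate block 4040 genes and 5 subunits were called, Itgb6 not among them (adjusted p = 0.0557) and Itga3 (0.0305) and Itga5 (0.034) among them. Deviations of same-numbered libraries from their group mean correlated at 0.304, -0.088 and 0.326. BrM replicates 2 and 3 had nearly the same correlations with each parental library (0.311 and 0.326 with parental replicate 3). The correlations therefore cannot tell whether the numbers pair the libraries, and the main fit did not pair them. Depth limits Itgb8 most, with 39 to 124 reads in BrM libraries.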

Other observations

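Itgb2, the beta chain of leukocyte integrins, was present in both tumour lines while the alpha chains it pairs with were near 0. It stood at 2931, 2043 and 2101 in BrM replicates 1 to 3, against 1268, 521 and 338 in parental replicates 1 to 3, and rose 3.83-fold (limma adjusted p = 0.0254). The call ended without BrM replicate 2 (adjusted p = 0.0638), BrM replicate 3 (0.0643), parental replicate 2 (0.0928) or parental replicate 3 (0.0595). Itgal, Itgam, Itgax and Itgad, which encode its alpha partners, were all under 7 scaled reads in every library and were not tested. Ptprc, a marker of all leukocytes, was at 4.88, 1.91 and 4.66 in BrM replicates 1 to 3, and at 0, 0 and 2.83 in parental replicates 1 to 3. Csf1r, a macrophage receptor, was at 319, 254 and 230.03 in BrM replicates 1 to 3, against 2.04, 1.65 and 18.9 in parental replicates 1 to 3, and rose 49.1-fold (adjusted p = 0.0037; 93.9-fold without parental replicate 3). Csf1r overlaps Hmgxb3 in the annotation. Of 6 leukocyte markers 5 were in the table, and they summed to 2994, 467 and 446 in BrM replicates 1 to 3, against 596, 222 and 216 in parental replicates 1 to 3. Most of the sum in BrM replicate 1 was Cd68, a macrophage protein, at 2669.6 there, 209 and 211 in BrM replicates 2 and 3, and 594, 221 and 195 in parental replicates 1 to 3. Cd68 was not called (log2 fold change 0.74, adjusted p = 0.637) and turned to -0.48 without BrM replicate 1. The markers' part in the Itgb2 value was not tested. Of 6 brain cell markers, Gfap, a filament protein of astrocytes, was tested and rose 4.31-fold (106 ± 29.9 in BrM cells and 23.4 ± 5.08 in parental cells, adjusted p = 0.00637), while Olig2 was at 0 in all libraries and Aqp4 and Mog were at 0 in BrM.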
